A study of Mus musculus with 9 samples.

Results

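The genes described are 10 that build, load, restrain or start the replicative DNA helicase: Mcm2, Mcm3, Mcm4, Mcm5, Mcm6, Mcm7, Cdc6, Cdt1, Gmnn and Mcm10. They were chosen by symbol, all 10 were found among the 16428 genes of the table, and all 10 passed the minimum mean value of 10 that left 14560 genes to test. The values are RNA levels in mouse embryonic fibroblasts, connective tissue cells grown from embryos. All cells carried the genotype CARM1f/f ER-Cre, that is, Carm1 alleles flanked by loxP sites together with a recombinase that tamoxifen activates. Carm1 encodes an arginine methyltransferase of histones and coactivators. The WT group had no treatment, the KO group received 2 uM 4-OHT (4-hydroxytamoxifen) for 6 days, and the CARM1i group received 1 uM of the CARM1 inhibitor TP-064 for 6 days, with 3 libraries in each group. WT and CARM1i cells therefore also carry the floxed alleles and the recombinase. No group had 4-OHT without the floxed alleles and none is labelled as a vehicle control, so the deletion cannot be told apart from 4-OHT, nor the inhibitor from its vehicle. Whether the replicates were separate cultures is not in the labels, and the p-values then cover the variation among these libraries alone, which could be technical.

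Before S phase, the origin recognition complex together with CDC6 and CDT1 loads the ring formed by MCM2, MCM3, MCM4, MCM5, MCM6 and MCM7 onto DNA as an inactive double hexamer, a step called licensing. Geminin, the product of Gmnn, binds CDT1 and blocks loading in S and G2 phase, which limits each origin to a single licensing per cycle. Kinases, CDC45 and GINS then turn the ring into the active CMG helicase, and MCM10 takes part in that activation. Many genes of this set are textbook targets of E2F transcription factors, and their RNA is known to be low in fibroblasts that have left the cycle.

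The promoters of these genes were searched for letters that E2F factors are known to bind, as a description of what the genes share in sequence. RefSeq promoter windows (GRCm38.p6, the build also called mm10, from 250 bases before to 50 after the start) were matched by symbol for 8 of the 10, all but Mcm4 and Gmnn. The E2F letters searched, on both strands, were TTTCCCGC, TTTCGCGC, TTTGGCGC and TTTGCCGC, and matches may overlap. They occurred in 6 of the 8 genes, namely Mcm3, Mcm5, Mcm6, Mcm7, Cdc6 and Cdt1. Among all 27025 genes with a window, 2.60% had a match, and among all 32851 windows, 2.26%. Mcm2 and Mcm10 held no match and were called lower in KO, while Cdt1 held a match and did not pass. A link between matches and the changes in KO was not tested. The windows of Mcm5, Mcm6, Cdc6 and Cdt1 are shown 5′ to 3′ on the strand of the gene, with E2F letters in capitals. Mcm5 and Mcm6 are the ring genes with the lowest KO levels relative to WT, and Cdc6 and Cdt1 are the 2 loader genes, of which one fell in KO and the other did not pass. Their positions, in the same order, are chr8:75109259-75109558 (plus strand), chr1:128359656-128359955 (minus strand), chr11:98907901-98908200 (plus strand) and chr8:122567765-122568064 (plus strand).
Mcm5: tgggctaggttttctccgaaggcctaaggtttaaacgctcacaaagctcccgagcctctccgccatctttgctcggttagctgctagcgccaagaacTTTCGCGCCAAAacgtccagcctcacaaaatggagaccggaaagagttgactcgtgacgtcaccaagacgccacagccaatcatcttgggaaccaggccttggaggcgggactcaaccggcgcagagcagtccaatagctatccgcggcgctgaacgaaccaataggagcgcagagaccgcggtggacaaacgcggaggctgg
Mcm6: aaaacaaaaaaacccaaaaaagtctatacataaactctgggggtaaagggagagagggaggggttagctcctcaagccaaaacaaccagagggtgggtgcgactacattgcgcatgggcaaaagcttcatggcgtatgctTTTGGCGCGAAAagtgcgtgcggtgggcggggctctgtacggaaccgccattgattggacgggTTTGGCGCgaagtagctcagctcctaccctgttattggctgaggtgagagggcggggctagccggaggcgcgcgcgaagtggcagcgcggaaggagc
Cdc6: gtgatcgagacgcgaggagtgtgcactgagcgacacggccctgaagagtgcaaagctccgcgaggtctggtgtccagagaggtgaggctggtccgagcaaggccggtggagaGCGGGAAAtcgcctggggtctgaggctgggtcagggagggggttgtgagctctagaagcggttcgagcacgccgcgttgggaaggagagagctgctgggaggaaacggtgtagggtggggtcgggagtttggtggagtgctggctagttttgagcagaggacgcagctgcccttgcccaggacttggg
Cdt1: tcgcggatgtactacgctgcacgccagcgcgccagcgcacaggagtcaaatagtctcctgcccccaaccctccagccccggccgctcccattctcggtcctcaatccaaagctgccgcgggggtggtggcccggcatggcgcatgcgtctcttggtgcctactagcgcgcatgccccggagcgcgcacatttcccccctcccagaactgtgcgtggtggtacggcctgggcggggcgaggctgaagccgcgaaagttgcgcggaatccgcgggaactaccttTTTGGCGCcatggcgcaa

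In the Mcm5 window 2 matches on opposite strands overlapped, 142 to 153 bases before the start, and the Mcm6 window held such a pair 99 to 110 bases before the start and another match 40 to 47 bases before it. The Cdc6 match lay 131 to 138 bases before the start, while the Cdt1 match lay after it. All these starts are those of the RefSeq windows and can differ from the gene coordinates given below. The Cdc6 and Mcm7 windows lie wholly within those coordinates, so the Cdc6 match lies after the start given there. The CCAAT box (CCAAT) was found in 6 of the 8 genes and in 41.1% of all genes with a window, and the GC box (GGGCGG) in 6 of the 8 and in 38.2%. The letters of the CHR element (TTTGAA or TTCGAA), known from late cell cycle genes, were in 2 of the 8, Mcm2 and Mcm7, and in 21.7% of all genes. All motifs were searched on both strands, and a match describes letters in a window, not binding and not a cause.

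Recovered read totals ran from 28657018 to 35842771 per library, and the 10 genes had between 286 reads (Gmnn in KO replicate 1) and 7868 reads (Mcm6 in WT replicate 1). Carm1 measured 1079, 1143 and 1091 normalized read counts in WT, 794, 711 and 769.8 in KO, and 1112, 1072 and 986 in CARM1i. Its count covers the whole gene, so it does not check the deletion of the floxed part. The chi-square per gene between the reads of replicates was 7.91 and 8.47 for the pairs with CARM1i replicate 3 and 2.47 to 5.54 for all other pairs, so that library stood apart. All 7 fibroblast markers were present, and their normalized read counts summed to 243606 to 250468 in WT, 179914 to 190185 in KO and 212294 to 235687 in CARM1i. Of these 7, 6 were called lower in KO, from -0.19 (Vim) to -1.27 (Col3a1) on the log2 scale, and Thy1 was called higher (0.18). In CARM1i, Col1a1, Col1a2 and Col3a1 were called lower and Thy1 higher (0.28). Over all tested genes, 20.5% were called lower and 21.4% higher in KO, and 8.59% and 10.5% in CARM1i. Of 5 macrophage markers, Csf1r, Cd68 and Cd14 were measured and summed to 218 to 274 in WT, 237 to 289 in KO and 251 to 261 in CARM1i. Ptprc and Adgre1 were not found by symbol among the genes measured. In KO, Cd68 was called higher (0.98 ± 0.27, adjusted p = 0.007039) and Cd14 lower (-0.43 ± 0.14, adjusted p = 0.02141), and in CARM1i they stood at 0.24 and -0.12 and did not pass. Of 4 epithelial markers, Krt18 was measured, at 23.3 to 48.0 in WT, 91.9 to 126 in KO and 32.4 to 43.8 in CARM1i. It was called higher in KO (1.58 ± 0.25, adjusted p = 4.58e-05) and did not pass in CARM1i (0.10 ± 0.25, adjusted p = 0.8381). Epcam, Cdh1 and Krt8 were not found by symbol among the genes measured. Endothelial Pecam1, Cdh5 and Kdr summed to 41.1 to 55.6 in WT, 71.5 to 87.7 in KO and 42.5 to 60.9 in CARM1i. The part of these cell types in the results on licensing genes was not tested.

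All 6 genes of the helicase ring fell in KO, by 0.60 (Mcm2) to 1.12 (Mcm5) on the log2 scale, and all 6 fell in CARM1i, by 0.12 (Mcm4) to 0.34 (Mcm5). Cdc6, Gmnn and Mcm10 fell in KO by 1.09 to 1.16, and Gmnn and Mcm10 also fell in CARM1i. The loader gene Cdt1 passed the test in neither comparison. In total 9 of the 10 genes were called lower in KO, where 20.5% of all tested genes were called lower and 21.4% higher. All 9 were at least 1.5-fold lower, against 5.56% of all tested genes, and all 9 had KO libraries below every WT library, against 25.9%. In CARM1i 8 of the 10 were called lower, where 8.59% of all tested genes were called lower and 10.5% higher. Those 8 did not overlap between CARM1i and WT, against 16.7% of all tested genes that were lower without overlap, and none was 1.5-fold lower, against 1.04%. The median log2 fold change of the 10 genes was -1.001 in KO and -0.19 in CARM1i, and that of all tested genes was -0.0043 and -0.0047. Without the intensity trend of the limma fit, 5 of the 10 were called lower in CARM1i, since Mcm3, Mcm4 and Mcm10 no longer passed. Without CARM1i replicate 3, 9 were called lower in KO and 8 in CARM1i.

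Fold changes are from limma on log2(normalized read count + 1), given as estimate ± SE, with p-values adjusted by Benjamini-Hochberg over all 14560 genes and a threshold of 0.05. Normalized read counts are reads divided by a size factor for each library. In these bulk samples fewer cycling cells and less RNA per cell cannot be told apart.

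**Figure D1:**
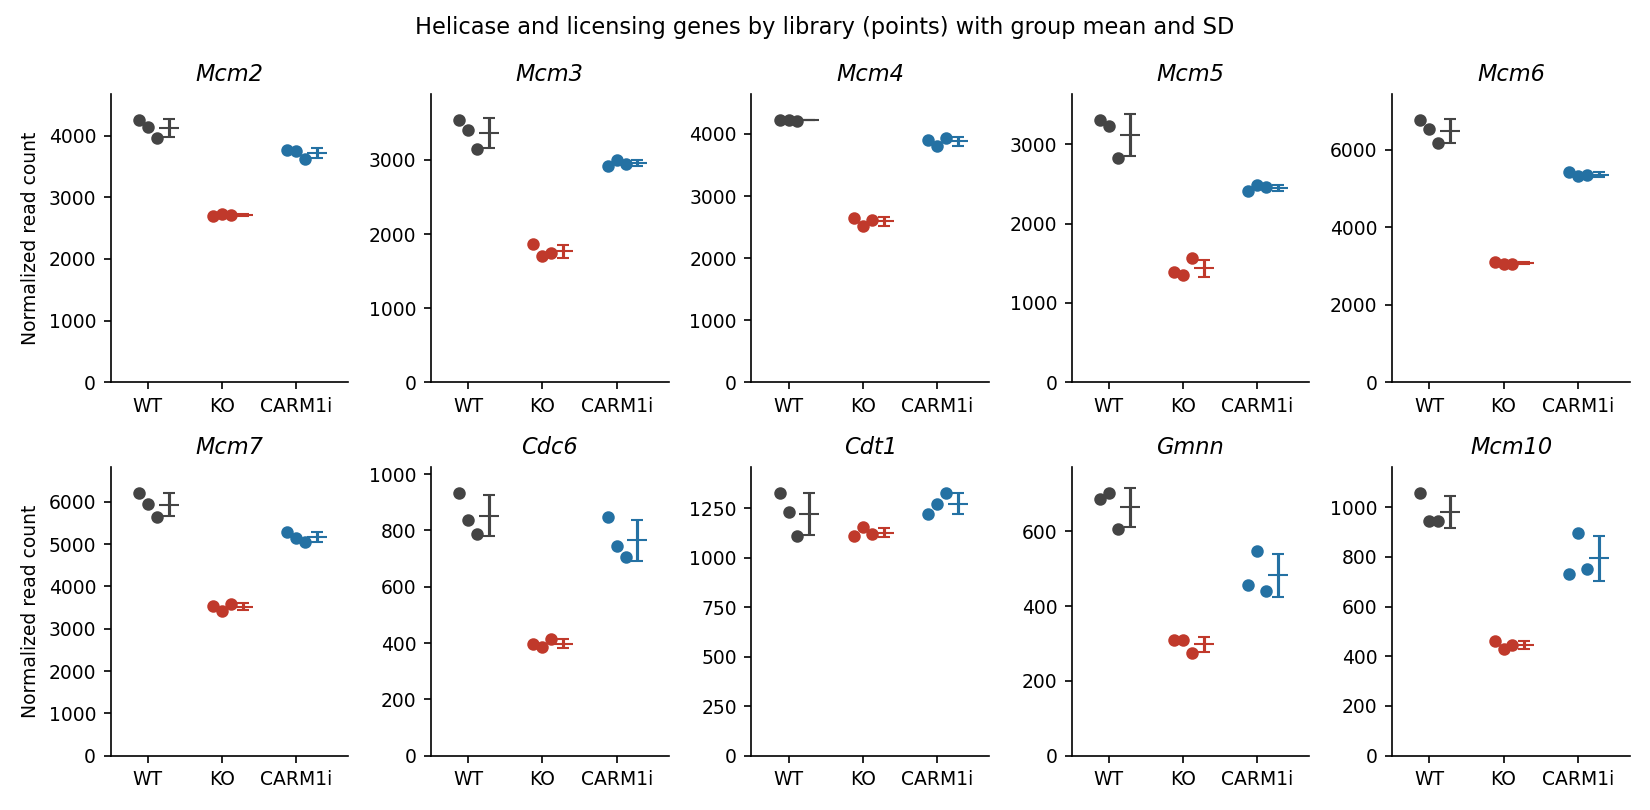
Normalized read count (vertical axes, from 0) of the 10 genes in each WT, KO and CARM1i library (points), with the group mean and SD beside them (n = 3). In 9 panels the KO points lie below all WT and CARM1i points, and in the Cdt1 panel the WT points, from 1111 to 1325, overlap the KO points and the CARM1i points.

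Mcm6 (ENSMUSG00000026355.11; chromosome 1, 128331590 to 128359664, mm10), a subunit of the ring, measured 6777, 6538 and 6165 normalized read counts in WT, 3115, 3051 and 3061 in KO, and 5421, 5315 and 5342 in CARM1i. The groups did not overlap, and CARM1i lay between WT and KO. Its log2 fold change was -1.08 ± 0.04 in KO (adjusted p = 1.981e-13) and -0.28 ± 0.04 in CARM1i (adjusted p = 2.224e-05).

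Mcm5 (ENSMUSG00000005410.6; chromosome 8, 75109569 to 75128439), which with MCM2 forms the gate of the ring, measured 3309, 3227 and 2821 normalized read counts in WT, 1389.7, 1355 and 1562 in KO, and 2409, 2481 and 2461 in CARM1i. Again the 3 groups stood apart, and WT replicate 3 was the WT library nearest to CARM1i. The KO mean was 46.0% of the WT mean (-1.12 ± 0.06, adjusted p = 3.975e-11) and the CARM1i mean 78.6% (-0.34 ± 0.06, adjusted p = 0.0003252).

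Mcm3 (ENSMUSG00000041859.10; chromosome 1, 20802968 to 20820312), another ring subunit, measured 3544, 3406 and 3142 normalized read counts in WT, 1868, 1699 and 1745 in KO, and 2924, 3004 and 2944 in CARM1i. Every KO value lay below all others, and the CARM1i values lay under the lowest WT value. The log2 fold change was -0.92 ± 0.05 in KO (adjusted p = 2.32e-11) and -0.18 ± 0.05 in CARM1i (adjusted p = 0.008271). The call in CARM1i ended without WT replicate 1 (adjusted p = 0.05752) and without the intensity trend (adjusted p = 0.07254).

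Mcm7 (ENSMUSG00000029730.16; chromosome 5, 138164583 to 138172422), a core subunit of the ring, measured 6204, 5951 and 5654 normalized read counts in WT, 3547, 3427 and 3584 in KO, and 5280.5, 5155 and 5051 in CARM1i. These ranges did not overlap. The log2 fold change was -0.75 ± 0.04 in KO (adjusted p = 1.962e-11) and -0.20 ± 0.04 in CARM1i (adjusted p = 0.0007766).

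Mcm4 (ENSMUSG00000022673.5; chromosome 16, 15623897 to 15637400), which forms the core of the ring with MCM6 and MCM7, measured 4227, 4229 and 4216 normalized read counts in WT, 2649, 2513 and 2616 in KO, and 3911, 3802 and 3928 in CARM1i. The WT libraries were nearly equal, and the groups did not overlap. It fell by 0.70 ± 0.03 in KO (adjusted p = 1.407e-11). Its CARM1i value of -0.12 ± 0.03 was the smallest change that passed among the 10 genes (adjusted p = 0.01502). That call ended without WT replicate 2 (adjusted p = 0.05463), without CARM1i replicate 2 (adjusted p = 0.0639) and without the intensity trend (adjusted p = 0.05169).

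Mcm2 (ENSMUSG00000002870.8; chromosome 6, 88883474 to 88898780), whose N-terminal tail binds histones, measured 4257, 4139 and 3967 normalized read counts in WT, 2703, 2722 and 2715 in KO, and 3769, 3749 and 3616 in CARM1i. The 3 KO libraries were nearly equal and lay below all others. Mcm2 kept the largest share of its WT level among the ring genes in KO, 65.8% (-0.60 ± 0.04, adjusted p = 2.028e-10), and stood at 90.1% in CARM1i (-0.15 ± 0.04, adjusted p = 0.005402). The 95% interval of its KO change, -0.68 to -0.53, lay above that of Mcm5, whose upper end was -0.996.

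The 2 loader genes gave different calls in KO. Cdc6 (ENSMUSG00000017499.15; chromosome 11, 98907801 to 98923940), the ATPase that joins the origin recognition complex, measured 932, 837 and 788 normalized read counts in WT, 396, 385 and 414 in KO, and 846, 744 and 704 in CARM1i. The KO libraries lay below all others, while WT and CARM1i overlapped. It fell by 1.09 ± 0.08 on the log2 scale in KO (adjusted p = 2.022e-09). In CARM1i the value of -0.16 ± 0.08 did not pass (adjusted p = 0.1722, 95% interval -0.32 to 0.00), and the adjusted p ran from 0.05388 to 0.5269 over the 20 alternative fits.

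Cdt1 (ENSMUSG00000006585.3; chromosome 8, 122568015 to 122573554), which brings the ring to the origin, measured 1325, 1228 and 1111 normalized read counts in WT, 1108, 1153 and 1119 in KO, and 1221, 1269 and 1325 in CARM1i. WT replicate 3 lay within the KO range, and the WT and CARM1i ranges overlapped. The log2 fold change was -0.11 ± 0.06 in KO (adjusted p = 0.1299), and its 95% interval of -0.23 to 0.01 lay above the intervals of the other 9 genes. Without WT replicate 3 the KO value was -0.18 and passed (adjusted p = 0.0145). In CARM1i the value was 0.06 ± 0.06 (adjusted p = 0.5229, 95% interval -0.06 to 0.18), and it turned to -0.0051 without WT replicate 3.

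Gmnn (ENSMUSG00000006715.11; chromosome 13, 24751845 to 24761923), the inhibitor of CDT1, measured 687, 702 and 605 normalized read counts in WT, 309, 308 and 275 in KO, and 458, 548 and 441 in CARM1i. The 3 groups did not overlap, and CARM1i replicate 2 was the nearest to WT. The KO mean was 44.7% of WT, the lowest share of the 10 genes (-1.16 ± 0.09, adjusted p = 7.815e-09). The CARM1i mean was 72.6% of WT, also the lowest of the 10 (-0.47 ± 0.09, adjusted p = 0.001096).

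Because Cdt1 and Gmnn had different values, their log2 difference within each library was set side by side, as a description with no test. It was 0.95, 0.81 and 0.88 in WT, 1.84, 1.90 and 2.02 in KO, and 1.41, 1.21 and 1.58 in CARM1i. All 3 groups stood apart, and the CARM1i libraries were the most spread. The mean was 1.04 higher in KO than in WT and 0.53 higher in CARM1i than in WT (0.44 without CARM1i replicate 3). The log2 difference of Cdc6 and Cdt1 was -0.52 ± 0.03 in WT, -1.50 ± 0.08 in KO and -0.74 ± 0.19 in CARM1i (mean ± SD, n = 3). Here KO stood apart from both others, and CARM1i replicate 1 lay within the WT range. These differences are not per length and are read only between groups.

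Mcm10 (ENSMUSG00000026669.14; chromosome 2, 4989714 to 5012791), the activation factor outside the ring, measured 1056, 945 and 943 normalized read counts in WT, 462, 428 and 446 in KO, and 733, 898 and 750.2 in CARM1i. The groups did not overlap, and CARM1i replicate 2 came nearest to WT. The log2 fold change was -1.14 ± 0.07 in KO (adjusted p = 1.033e-09) and -0.31 ± 0.07 in CARM1i (adjusted p = 0.006775). The CARM1i call ended without the intensity trend (adjusted p = 0.05803).

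**Figure D2:**
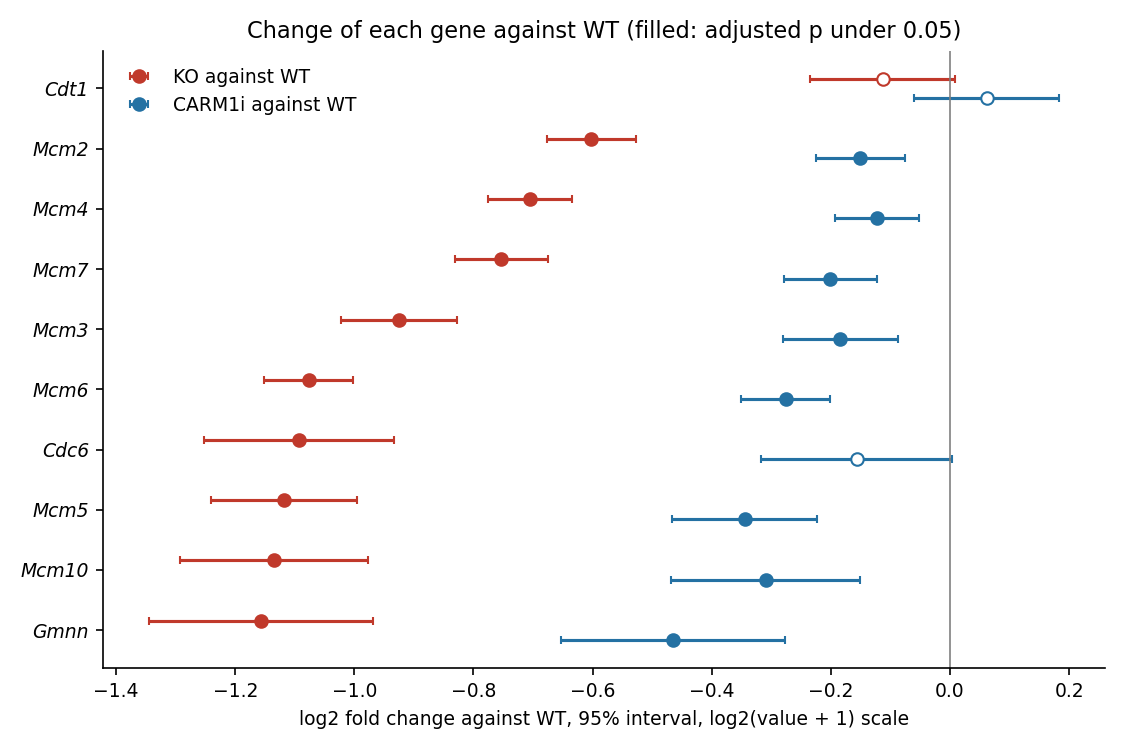
Log2 fold change against WT (horizontal axis, log2(value + 1) scale) of the 10 genes in KO and in CARM1i with 95% intervals from the limma fit, filled where the adjusted p was under 0.05. Cdt1 is the open KO point at -0.11, and the filled KO points run from -0.60 for Mcm2 to -1.16 for Gmnn.

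Set directly against each other, CARM1i was higher than KO in all 10 genes, where 12.1% of all tested genes were called higher. None of the 10 overlapped between these groups, against 18.3% of all tested genes that were higher without overlap, and 6 were at least 1.5-fold higher, against 2.4%. The differences ran from 0.17 ± 0.06 for Cdt1 (adjusted p = 0.03675) to 0.94 ± 0.08 for Cdc6 (adjusted p = 6.508e-08), with a median of 0.72. Mcm6 stood at 0.80 ± 0.04, Mcm10 at 0.83 ± 0.07, Mcm5 at 0.77 ± 0.06, Mcm3 at 0.74 ± 0.05 and Gmnn at 0.69 ± 0.09. Mcm4, Mcm7 and Mcm2 had the smaller values of 0.58 ± 0.03, 0.55 ± 0.04 and 0.45 ± 0.04. The Cdt1 call was lost in 8 of the 20 alternative fits. These were quantile normalization (adjusted p = 0.07403), no intensity trend (0.1186), a replicate block (0.05702), and leaving out KO replicate 1 (0.1038), KO replicate 2 (0.06107), KO replicate 3 (0.1018), CARM1i replicate 2 (0.08118) or CARM1i replicate 3 (0.09581). The other 9 genes kept this call in all 20. All 3 comparisons share libraries. In 8 genes, all but Cdc6 and Cdt1, each comparison passed with CARM1i below WT and above KO, against 4.35% of all tested genes.

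Divided by merged exon length in kb, the ring genes had the highest levels of the 10 in WT, from 592 ± 21.0 (Mcm2) to 1392 ± 66.1 (Mcm6) normalized read counts per kb. Merged exon length joins every annotated exon of a gene, which can be longer than the transcripts in these cells. It was 6.956 kb for Mcm2 and 3.752 kb for Mcm3, and the order between genes depends on it. The order in WT was Mcm6, Mcm7, Mcm4, Mcm3, Mcm5, Mcm2, Gmnn, Cdt1, Cdc6 and Mcm10, in which Mcm6 and Mcm7, and Gmnn and Cdt1, overlapped over the libraries. Cdc6 at 163 ± 14.0 per kb and Mcm10 at 128 ± 8.42 per kb were the lowest. In KO, Mcm7 led at 795 ± 18.5 per kb, followed by Mcm4 at 722 ± 19.7 and Mcm6 at 659 ± 7.39, with no overlap. Cdt1, at 359 ± 7.57 per kb in KO, overlapped Mcm5, at 359.5 ± 27.8 per kb, whereas in WT it lay below all ring genes. Gmnn stood at 454 ± 35.6 per kb in WT and 203 ± 13.4 in KO, below Cdt1 in every KO library. In CARM1i the order was Mcm7, Mcm6, Mcm4, Mcm3, Mcm5, Mcm2, Cdt1, Gmnn, Cdc6 and Mcm10, and of these neighbours Mcm7 and Mcm6 overlapped.

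The ring holds its 6 proteins in equal number, and the share of each gene in their summed value per kb was set side by side, as a description. The shares depend on the merged exon lengths used, so they are read between groups and not between genes. Within a library they add up to a fixed total. A share can therefore rise while the level of its gene falls, as for Mcm2 in KO. Mcm6 held 22.5% ± 0.103 in WT, 19.4% ± 0.341 in KO and 21.5% ± 0.130 in CARM1i (mean ± SD, n = 3). Mcm2 held 9.59% ± 0.0845 in WT, 11.5% ± 0.289 in KO and 10.0% ± 0.175 in CARM1i. For Mcm6 and Mcm2 the groups did not overlap, with every CARM1i share between those of WT and KO. Mcm5 held 12.6% ± 0.543 in WT and 10.6% ± 0.692 in KO, Mcm4 19.1% ± 0.812 and 21.3% ± 0.164, and Mcm7 21.7% ± 0.140 and 23.4% ± 0.124, each without overlap. Mcm3 held 14.5% ± 0.251 in WT and 13.9% ± 0.513 in KO, and these overlapped. In CARM1i, Mcm3 held 14.8% ± 0.263, Mcm4 20.3% ± 0.375 and Mcm7 21.9% ± 0.349, each overlapping WT. Mcm5 held 11.5% ± 0.237 in CARM1i, which overlapped KO.

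**Figure D3:**
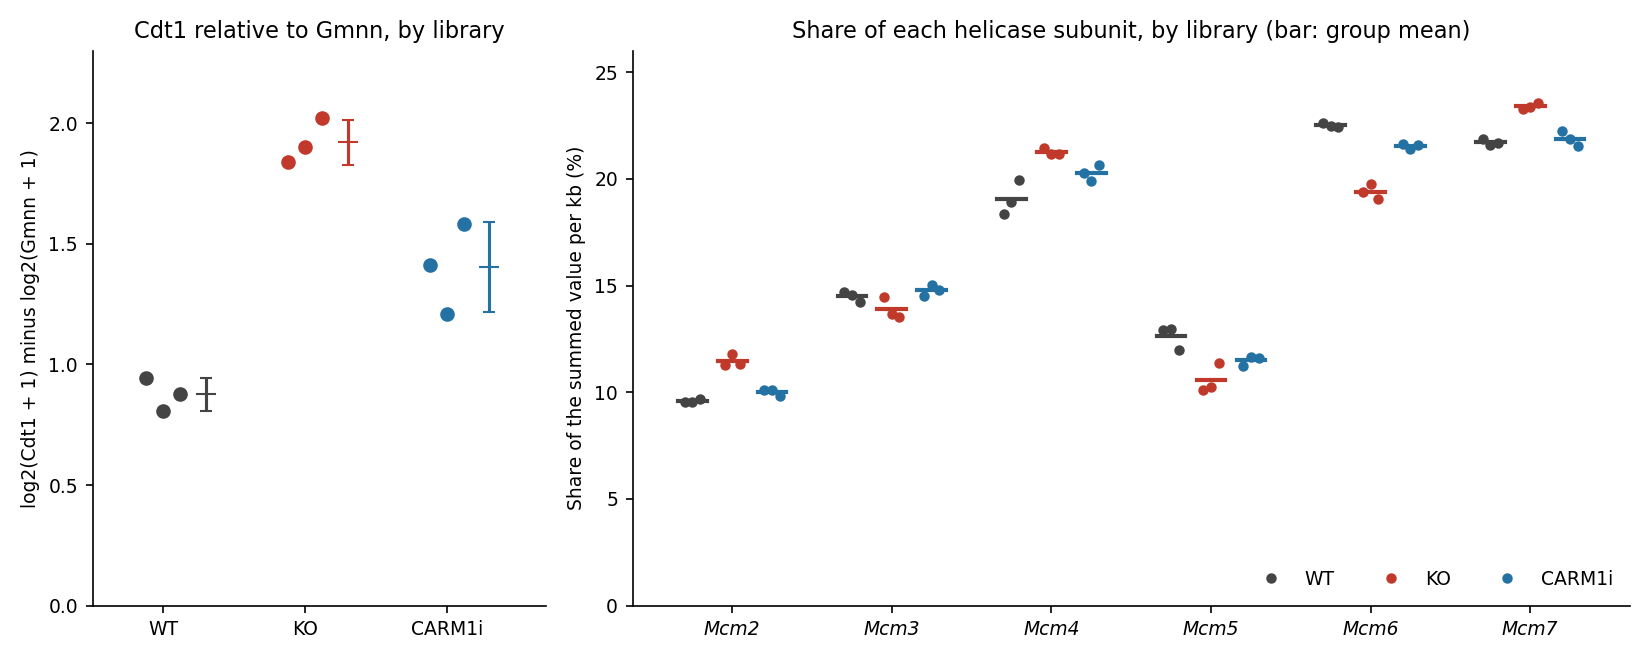
Left, log2 difference of Cdt1 and Gmnn in each library (points) with group mean and SD (n = 3). Right, share of each ring gene in the summed value per kb of Mcm2 to Mcm7 (vertical axis in percent, from 0) in each library, with bars at group means. The left panel shows KO libraries at 1.84 to 2.02 and WT libraries at 0.81 to 0.95, and the right panel shows the share of Mcm6 lower and that of Mcm2 higher in KO than in WT.

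Other genes of licensing and firing were read from a list of 37, of which 36 were tested. In KO 32 were called lower and 0 higher, with a median log2 fold change of -0.60, where 20.5% of all tested genes were called lower and 21.4% higher. In CARM1i 16 were called lower and 0 higher, with a median of -0.20, where 8.59% of all tested genes were called lower and 10.5% higher. No list gene had an unadjusted p under 0.05 in the higher direction in either comparison by limma, and edgeR and DESeq2 also called 0 higher. Between CARM1i and KO, 28 were called higher in CARM1i, with a median of 0.37, where 12.1% of all tested genes were called higher. All 12 helicase activation genes fell in KO (median -0.71), and 8 of them in CARM1i (median -0.25). Cdc45, the helicase cofactor, was at -0.90 ± 0.06 in KO and -0.25 ± 0.06 in CARM1i, and Dbf4, the activator of the CDC7 kinase, at -0.64 ± 0.04 and -0.20 ± 0.04. The firing scaffold Topbp1 was at -0.71 ± 0.03 and -0.24 ± 0.03, and Mtbp, the partner of treslin, at -0.68 ± 0.05 and -0.28 ± 0.05. These 4 genes were higher in CARM1i than in KO by 0.40 to 0.64.

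The 4 partners of the helicase at the fork fell in both comparisons (medians -1.09 and -0.37). Of all tested genes, 20.5% were called lower in KO and 8.59% in CARM1i. Clspn, the checkpoint adaptor claspin, was at -1.39 ± 0.06 in KO, a larger fall than in any of the 10 genes, and at -0.40 ± 0.06 in CARM1i. Wdhd1, which links the helicase to polymerase alpha, stood at -1.15 ± 0.06 and -0.36 ± 0.06. The fork protection pair stood at -1.03 ± 0.06 and -0.38 ± 0.06 for Timeless, and at -0.79 ± 0.04 and -0.22 ± 0.04 for Tipin. All 4 were higher in CARM1i than in KO, by 0.58 to 1.00.

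Of 7 origin recognition genes, 5 fell in KO (median -0.28), where 20.5% of all tested genes were called lower. In CARM1i 0 of the 7 passed by limma (median -0.12), where 8.59% of all tested genes were called lower, so that this count of calls lies near the background. In 4 of the 7 (Orc1, Orc2, Orc5 and Orc6) every CARM1i library lay below every WT library, against 16.7% of all tested genes. Of the 7, 3 had an unadjusted p under 0.05 in CARM1i, all in the lower direction, and edgeR and DESeq2 called 0. Of the 14560 tested genes, 4482 had such a p, counted in both directions. In KO, Orc6 was at -0.58 ± 0.05, Orc1 at -0.57 ± 0.10, Lrwd1, which binds the complex, at -0.38 ± 0.06 and Orc2 at -0.26 ± 0.04. The same 4 had values of -0.20 to -0.10 in CARM1i against WT and were higher in CARM1i than in KO by 0.16 to 0.46. Orc3 (-0.02 ± 0.05) and Orc4 (0.03 ± 0.04), named after their values were seen, did not pass in KO. Of the other MCM genes, Mcm8 and Mcm9, which act in recombination, and Mcmbp, which binds MCM proteins, fell in KO by 0.63 ± 0.12, 0.51 ± 0.11 and 0.40 ± 0.05. In CARM1i these 3 had values of -0.20, -0.27 and -0.10 and 0 passed by limma, with 1 at an unadjusted p under 0.05, and edgeR and DESeq2 called 0. Mcm8, Mcm9 and Mcmbp differed by 0.43, 0.24 and 0.30 between CARM1i and KO, of which those of Mcm8 and Mcmbp passed.

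Of 10 genes that control licensing factors, 8 fell in KO (median -0.27), where 20.5% of all tested genes were called lower, and 4 in CARM1i (median -0.09), where 8.59% were. Dtl, the ligase adaptor that marks CDT1 for destruction in S phase, stood at -1.12 ± 0.07 in KO and -0.23 ± 0.07 in CARM1i. Ccnf, whose product targets CDC6, was at -0.88 ± 0.08 and -0.43 ± 0.08, and Skp2, another adaptor for CDT1, at -0.59 ± 0.06 and -0.24 ± 0.06. The deubiquitinase gene Usp37 was at -0.45 ± 0.05 and -0.20 ± 0.05. These 4 were higher in CARM1i than in KO by 0.26 to 0.90. The ligase scaffold genes Cul4a (0.05 ± 0.03) and Cul4b (0.06 ± 0.03), named after their values were seen, did not pass in KO.

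**Figure D4:**
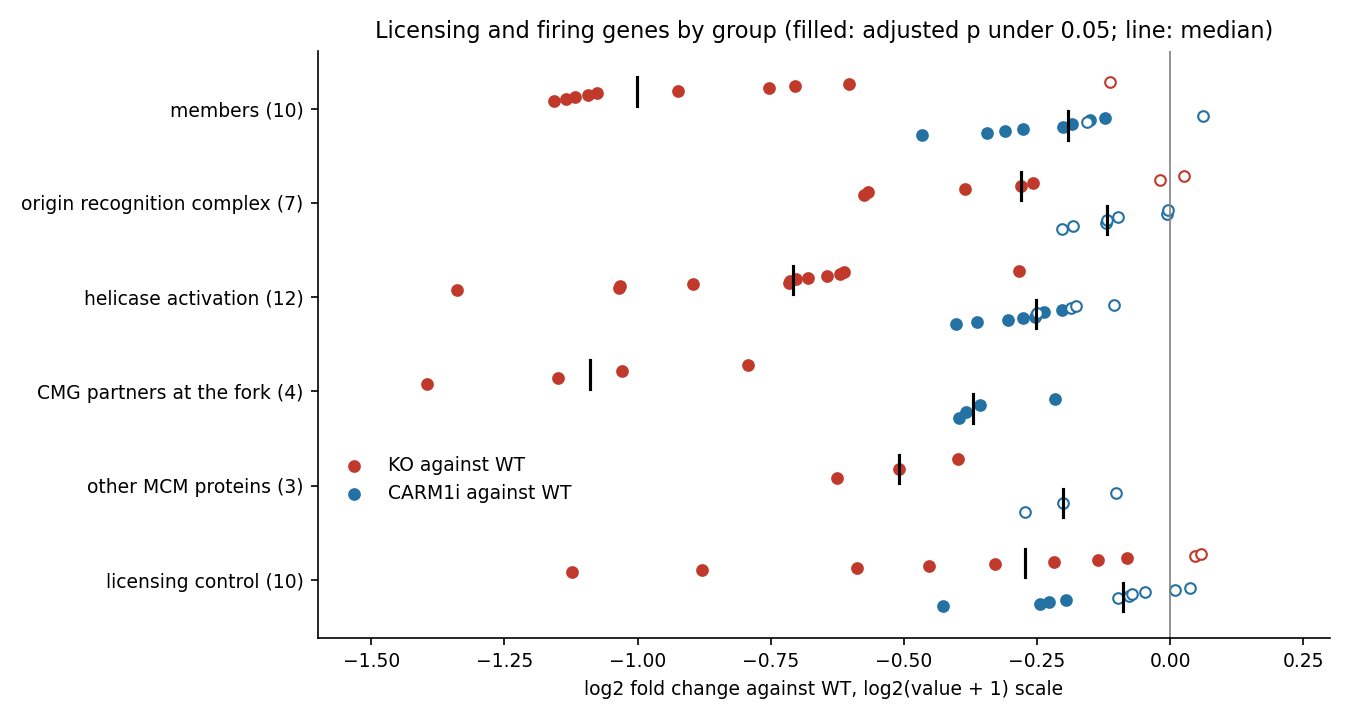
Log2 fold change against WT (horizontal axis, log2(value + 1) scale) of the 10 genes (top row) and of the other licensing and firing genes by group, in KO and CARM1i, filled where the adjusted p was under 0.05, with a line at each median. Fork partners have the lowest KO median, -1.09, and origin recognition and licensing control genes the highest, -0.28 and -0.27.

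Mcm4 and Mcm7 have neighbours that start close by on the opposite strand. The start of Mcm4 lies 466 bases from that of Prkdc, a kinase gene of DNA end joining (chromosome 16, 15637866 to 15842235). Prkdc measured 547 ± 4.57 normalized read counts in WT, 565 ± 13.8 in KO and 579 ± 41.2 in CARM1i (mean ± SD, n = 3). It passed in neither comparison (0.05 ± 0.07 in KO, adjusted p = 0.5975, and 0.08 ± 0.07 in CARM1i, adjusted p = 0.4374), while the Mcm4 mean in KO was 61.4% of WT. Ap4m1, an adaptor subunit of vesicle transport (chromosome 5, 138172002 to 138180429), starts 420 bases from Mcm7 and overlaps its first bases. It went from 1297 ± 53.3 in WT to 985 ± 73.4 in KO (-0.40 ± 0.06, adjusted p = 1.263e-05), against -0.75 ± 0.04 for Mcm7. Cops6, a signalosome subunit gene that overlaps the other end of Mcm7, stood at 2381 ± 46.0 in WT and 2391 ± 129 in KO (adjusted p = 0.9433). The strand setting of the counting is not known from the labels, so reads in the overlapping stretches cannot be told apart. Cdt1 lies within the annotated gene Gm20388 on the same strand (chromosome 8, 119910841 to 124345722), which was not found among the genes measured. The effect of that overlap on the Cdt1 count was not tested.

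Genes outside the set with the most similar profile over the 9 libraries were ranked by the root mean square distance of their centred log2 values from the mean profile of the 10 genes. The 10465 candidates had a mean of at least 100. Genes without a symbol, predicted genes with Gm or Rik symbols, Xist and Y-linked genes were left out. The nearest 8 were Dnmt1, the maintenance DNA methyltransferase (distance 0.04), Stmn1, which destabilizes microtubules, the surface antigen gene Cd24a, Ezh2 of Polycomb, the chromatin remodeller Hells, the ATPase gene Atad2, the condensin gene Smc2 and Cdc45 (0.05). Dnmt1 measured 6351 ± 382 in WT, 3656 ± 103 in KO and 5432 ± 96.0 in CARM1i. Of the 10 genes themselves, Mcm3 lay nearest to the mean profile, at 0.05, and Cdt1 farthest, at 0.32.

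The 6 proliferation markers fell in both comparisons, with medians of -1.25 in KO and -0.49 in CARM1i. Of all tested genes, 20.5% were called lower in KO and 8.59% in CARM1i. Their summed normalized read counts were 33014 to 34259 in WT, 14452 to 14972 in KO and 23082 to 25283 in CARM1i, with no overlap of these sums. Pcna alone did overlap between CARM1i and WT, with 4056 in CARM1i replicate 1 above 4009 in WT replicate 3. Mki67 was at -1.48 ± 0.05 in KO and -0.53 ± 0.05 in CARM1i, Top2a, the mitotic topoisomerase, at -1.41 ± 0.03 and -0.56 ± 0.03, and Pcna, the sliding clamp, at -0.60 ± 0.04 and -0.14 ± 0.04. The cyclin genes Ccna2 and Ccnb1 were at -1.50 ± 0.04 and -1.09 ± 0.05 in KO and at -0.48 ± 0.04 and -0.51 ± 0.05 in CARM1i, and the kinase gene Cdk1 at -0.996 and -0.45. The part of the cycling share of cells in the results on licensing genes was not tested.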

How the data were processed

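RNA of 9 libraries of mouse embryonic fibroblasts (3 WT, 3 KO, 3 CARM1i) was sequenced from a stranded mRNA kit, per the labels' protocols. TopHat2 2.0.10, HTSeq 0.6.0, DESeq 1.18.0 and mm10 are named, per the submitters' processing notes. The annotation release was not given in the sources used here, nor was the strand setting. For 16428 genes the authors deposited a normalized signal, which the values show to be read counts divided by one size factor per library. In every library 100% of values were whole multiples of 1 read (tolerance 1e-06 of a read), and the steps equalled inverse median-of-ratios size factors of 0.925 to 1.16. KO replicate 2 has a step near 1, which an automatic test cannot tell from raw counts. IDs were matched without version to GENCODE M21 (16413 matched, 15 did not).

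Genes with a mean of at least 10 (14560) were tested with limma 3.58.1 (R 4.3.3, intensity trend) on log2(value + 1), 9 libraries in one fit by group. EdgeR 4.0.16 on the recovered reads called 3031 lower and 3119 higher genes in KO and 1271 and 1550 in CARM1i, and DESeq2 1.42.0 was also run. The fit was tested on simulated data. The 10 genes and the gene lists were chosen with earlier results of these data known. Named pathway genes are the up to 4 per list with the smallest adjusted p in KO; the rule also takes any called against most of its list, of which there were none. Orc3, Orc4, Cul4a and Cul4b fall outside the rule and were chosen after their values were seen, as were the single fibroblast and macrophage markers. Other settings tried were all genes without a minimum, a minimum mean of 50, quantile normalization, scaling to a common total, a fit without trend, pseudocounts 0.5 and 10, fits restricted to the 2 groups compared, a replicate block, each library left out in turn, and calls at an adjusted p under 0.01 or at 1.5-fold or more.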

Additional observations from a re-analysis of the deposited data

How the results depend on the processing

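Of the 10 genes, 9 were lower in KO under each alternative run except without WT replicate 3, where 10 were (9 to 10 over the left-out libraries). In CARM1i 8 fell, with 7 to 8 over the left-out libraries, 5 without the intensity trend and 0 at a 1.5-fold minimum (limma; 4482 genes had an unadjusted p under 0.05). Against KO, 10 were higher in CARM1i, 9 to 10 over the left-out libraries and 6 at a 1.5-fold minimum. Cdt1 in CARM1i against WT turned from 0.06 to -0.0051 without WT replicate 3, and ran from -0.0051 to 0.12 over the left-out libraries. On the pathway list, a 1.5-fold minimum left 19 lower in KO of 32, 0 in CARM1i of 16 and 8 higher in CARM1i against KO of 28.

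Over all genes, 2986 were lower and 3114 higher in KO, and 810 and 626 at a 1.5-fold minimum. In CARM1i against WT 1251 were lower and 1533 higher; there were 779 and 1018 without the intensity trend, 665 and 1003 at an adjusted p under 0.01, and 151 and 130 at a 1.5-fold minimum, and 806 to 1207 were lower over the left-out libraries, the fewest without WT replicate 2. In CARM1i against KO 1675 were lower and 1761 higher, 1008 and 1147 at an adjusted p under 0.01, and 173 and 349 at a 1.5-fold minimum. The cause of these shifts was not tested, apart from the stricter thresholds, which admit fewer genes by construction.

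Replicate numbers were treated as names, since same-numbered libraries did not deviate together (correlations of their deviations from -0.09 to 0.03). With a replicate block, 9 of the 10 genes were lower in KO, 8 in CARM1i, and 9 were higher in CARM1i against KO; the call that was lost is that of Cdt1.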
